A study of Mus musculus with 6 samples.

Results

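The unfolded protein response (UPR) and the ATF4 response were followed through 33 genes, taken by symbol from a table of 23420 genes and sorted by role into 4 branches. These are 14 chaperones and folding enzymes of the endoplasmic reticulum (ER), 6 genes of ER-associated degradation, 4 genes for the UPR sensors and the factor XBP1, and 9 genes for ATF4 and its targets. Of the 33 genes, 31 had enough counts to be tested, and *Chac1* and *Nupr1* did not. Polyadenylated RNA was sequenced from 6 libraries of mouse T cells in 3 groups of 2 libraries: *Dyrk1a* shRNA, harmine together with control shRNA, and control shRNA alone. All were splenic CD4+CD62L+ T cells of Balb/c mice aged 12 weeks, isolated with magnetic beads and activated on plates through CD3 and CD28. Lentiviral shRNA, either against the kinase gene *Dyrk1a* or a scrambled control, was added 24 hours later at 10 µl per well. After a further 24 hours the cells were fed medium with IL-2, with 3.7 µM harmine in the harmine group only, and they were collected 48 hours after that. Harmine is a plant alkaloid that inhibits DYRK1A. The authors name further targets, among them monoamine oxidase A, CDC-like kinases and the DYRK family. The comparisons ask how a hairpin aimed at *Dyrk1a*, or a compound that inhibits the kinase, moves these RNAs. The labels do not say which hairpins were used, or whether the libraries of a group came from separate mice or cultures, so p-values measure the spread between these libraries only.

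The UPR is the reaction of a cell to misfolded protein in the ER, where secreted and membrane proteins are folded. It has 3 sensors in the ER membrane. IRE1, encoded by *Ern1*, splices the mRNA of *Xbp1* so that it yields an active transcription factor. ATF6 is cut in the Golgi to release a transcription factor, and PERK, encoded by *Eif2ak3*, phosphorylates the initiation factor eIF2α. That phosphorylation slows translation in general but favours translation of ATF4, which then drives genes of amino acid supply, redox balance and cell death. The kinase GCN2 reaches the same point on amino acid shortage, and the whole is known as the integrated stress response. Activated T cells use these pathways as they expand their secretory machinery. Gene counts such as these do not show XBP1 splicing, ATF6 cleavage or the translation of ATF4.

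Total counts were 2678872 and 3274050 in *Dyrk1a* shRNA libraries, 3441063 and 3747648 in harmine libraries and 1743428 and 1096345 in control libraries, so the controls were the shallowest. Values below are counts per 1000000 counts of the library (CPM), scaled by TMM. Markers of CD4 T cells summed to between 3459 and 3683 CPM in every library. The targeted gene, *Dyrk1a*, was at 60.2 and 61.9 CPM in the libraries labelled *Dyrk1a* shRNA, 74.8 and 77.6 CPM in harmine libraries and 58.4 and 82.7 CPM in control libraries. The knockdown libraries lay within the range of the controls, with a log2 fold change of -0.19 (standard error 0.21, edgeR quasi-likelihood test, adjusted p = 0.835), which was -0.45 without control replicate 1 and 0.07 without control replicate 2, so the RNA does not show the knockdown that the label states. Between the replicates of a group, the 31 genes differed by a median of 0.13 with *Dyrk1a* shRNA, 0.16 with harmine and 0.30 in control on the log2 scale. A difference over 0.5 was seen for 1 gene with *Dyrk1a* shRNA (*Sesn2*), 2 with harmine (*Creld2* and *Asns*) and 9 in control, namely *Pdia4*, *Pdia6*, *Dnajb9*, *Sdf2l1*, *Creld2*, *Ern1*, *Atf6*, *Eif2ak3* and *Ddit3*.

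Promoter sequence was not part of the rule that chose the genes, and matches differed between the branches. The genes were listed for known roles in these pathways, so matches to elements of the same pathways describe them and test nothing. RefSeq windows on GRCm38.p6, from 250 bases before to 50 bases after the start of transcription, were found for 29 of the 33 genes, and both strands were searched. The ER stress response element (ERSE) reads CCAAT, then 9 bases of any kind, then CCACG, and is bound by ATF6 together with NF-Y. It was present in 8 of the 29 genes with a window, of which 7 are chaperones and folding enzymes and 1 belongs to ER-associated degradation, beside 0.15% of 7979 tested genes with a window. That share is 12 genes, which include these 8. The elements are shown because they were found in 7 of the 12 chaperone and folding genes with a window, each read in the direction of the motif with CCAAT and CCACG in capitals.
Hspa5, chr2:34772020-34772048: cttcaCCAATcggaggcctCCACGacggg
Hsp90b1, chr10:86705633-86705661: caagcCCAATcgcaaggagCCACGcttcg
Hsp90b1, chr10:86705528-86705556: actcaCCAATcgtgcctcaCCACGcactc
Pdia6, chr12:17266486-17266514: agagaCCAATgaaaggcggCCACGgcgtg
Calr, chr8:84847070-84847098: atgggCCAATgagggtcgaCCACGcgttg
Canx, chr11:50325795-50325823: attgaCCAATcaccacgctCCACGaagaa
Dnajc3, chr14:118937822-118937850: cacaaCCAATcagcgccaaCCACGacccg
Creld2, chr15:88819515-88819543: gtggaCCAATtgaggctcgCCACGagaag
Syvn1, chr19:6046527-6046555: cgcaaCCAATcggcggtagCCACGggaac

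The ATF4 branch carried another element. The core of the C/EBP-ATF response element (CARE) reads TGATGNAA. It was in 5 of the 29 genes with a window, 4 of them in the ATF4 branch and 1 in ER-associated degradation. Over all windows the share was 3.97%, and over tested genes 2.64%. *Chac1* and *Nupr1*, which were not tested, are among the 5. The matches are shown in the direction of the motif, with the core in capitals.
Herpud1, chr8:94386312-94386329: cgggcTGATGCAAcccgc
Trib3, chr2:152344034-152344051: ccggcTGATGTAAacctg
Chac1, chr2:119351044-119351061: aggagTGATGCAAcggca
Asns, chr6:7693220-7693237: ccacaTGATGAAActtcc
Nupr1, chr7:126625568-126625585: ctgtcTGATGCAAtctgg

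**Figure D1:**
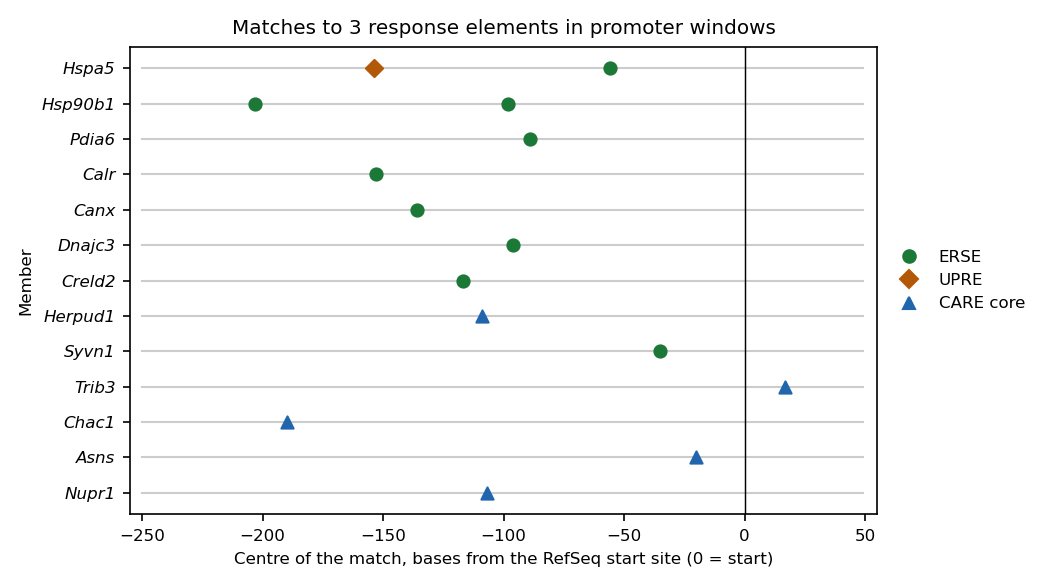
Position of each match to the ERSE (circles), the UPR element (diamond) and the CARE core (triangles) in the promoter windows of 13 genes, in bases from the RefSeq start site, with grey lines for the windows searched. *Hsp90b1* has 2 ERSE matches, and the match in *Trib3* lies after the start.

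The promoter of *Hspa5* is given in full to the start of transcription because it held both the ERSE and the UPR element TGACGTG, which is known to bind XBP1 and ATF6 and was found in no other of the 29 genes with a window and in 3.66% of tested genes. The same stretch is given for *Ddit4* and *Ppp1r15a*, the ATF4 targets described in most detail below. In the sequence of *Hspa5*, capitals mark both elements. In that of *Ddit4* they mark CCACG, the last 5 bases of the ERSE, read on the opposite strand, a short motif that also lies inside every ERSE and was found in 53.7% of tested genes. The stretch of *Ppp1r15a* held none of these motifs. No match to the ERSE, the UPR element or the CARE core was found in the whole window of either gene, which says only that those letters are not there.
Hspa5, chr2:34771840-34772089, plus strand: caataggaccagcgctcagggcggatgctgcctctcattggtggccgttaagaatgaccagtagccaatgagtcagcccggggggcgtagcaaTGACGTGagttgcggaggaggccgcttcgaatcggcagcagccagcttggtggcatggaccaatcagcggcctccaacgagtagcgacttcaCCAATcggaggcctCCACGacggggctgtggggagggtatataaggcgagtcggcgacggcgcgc
Ddit4, chr10:59951771-59952020, minus strand: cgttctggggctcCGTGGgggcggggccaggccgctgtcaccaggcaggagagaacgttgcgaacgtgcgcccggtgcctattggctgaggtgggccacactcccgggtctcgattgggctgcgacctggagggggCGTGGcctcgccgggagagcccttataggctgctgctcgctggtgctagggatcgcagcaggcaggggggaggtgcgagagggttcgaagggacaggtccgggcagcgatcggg
Ppp1r15a, chr7:45526269-45526518, minus strand: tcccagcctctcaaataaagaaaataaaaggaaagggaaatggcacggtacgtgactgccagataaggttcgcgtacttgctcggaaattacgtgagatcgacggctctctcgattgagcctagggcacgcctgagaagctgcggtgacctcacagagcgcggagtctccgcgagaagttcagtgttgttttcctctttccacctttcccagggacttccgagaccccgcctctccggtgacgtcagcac

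RNA of all 4 branches was present in these cells. Per kilobase of exon, the mean level over the 6 libraries was highest for *Ddit4*, an inhibitor of mTORC1 signalling, at 271 CPM per kb, followed by *Xbp1* at 141 CPM per kb and *Atf4* at 91.2 CPM per kb. The protein disulfide isomerase *Pdia3* and the lectin chaperones *Canx* and *Calr* followed at 85.3, 74.6 and 62.2 CPM per kb. Lowest among the genes tested were *Hyou1*, *Asns* and *Ern1* at 2.59, 1.81 and 0.443 CPM per kb. Behind *Ern1* lay only 3 to 13 counts per library. *Chac1*, a glutathione-degrading enzyme, had at most 6 counts, with 1.53 and 1.47 CPM in *Dyrk1a* shRNA libraries, 1.79 and 1.06 CPM in harmine libraries and 1.88 and 0 CPM in control libraries. *Nupr1*, a stress-induced chromatin protein, had at most 1 count in any library.

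**Figure D2:**
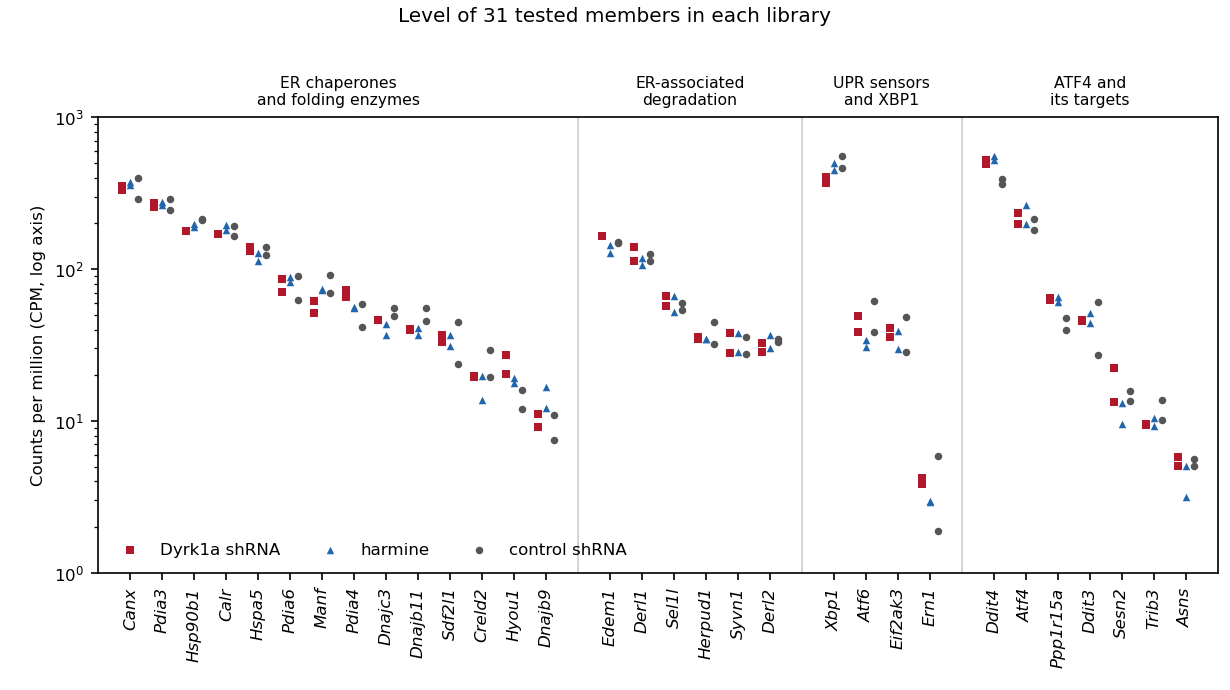
CPM of the 31 tested genes in each of the 6 libraries on a log axis, by branch, with *Dyrk1a* shRNA as squares, harmine as triangles and control shRNA as circles. *Ddit4* and *Ppp1r15a* lie above both controls in the other 4 libraries, and the control libraries stand far apart for *Ern1* and *Ddit3*.

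None of the 31 genes passed an adjusted p of 0.05 in any comparison by edgeR, and none by DESeq2. With harmine the smallest adjusted p was 0.903, where 0.00943% of the 10607 genes tested were called higher and 0% lower. With *Dyrk1a* shRNA it was 0.612, where 0.00943% of genes were called higher and 0.00943% lower. Between *Dyrk1a* shRNA and harmine it was 0.859, where 0% were called higher and 0.00943% lower. Intervals show how large a change could have gone unseen. The 95% interval of the fold change lay within 2-fold either way for 23 of 31 genes with harmine, for 26 with *Dyrk1a* shRNA and for 27 when the treatments were compared. Those that reached 2-fold in at least 1 comparison were *Dnajb9*, *Creld2*, *Hyou1*, *Ern1*, *Atf6*, *Trib3*, *Asns* and *Sesn2*.

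At an unadjusted p under 0.05 the share of these genes was above that of all genes in some comparisons and near or below it in others, on counts of 4 or fewer. With harmine, edgeR gave 2 genes higher (6.45%), beside 2.22% of all genes, and 1 lower (3.23%), beside 3.07%. With *Dyrk1a* shRNA it gave 4 genes higher (12.9%), beside 3.1% of all genes, and 1 lower (3.23%), beside 4.59%. Between the treatments 1 gene was higher with *Dyrk1a* shRNA (3.23%), beside 2.91%, and 0 were lower, beside 2.82%. By DESeq2 the unadjusted counts were 1 higher and 0 lower with harmine, 1 higher and 1 lower with *Dyrk1a* shRNA, and 0 either way between them. Over all genes the DESeq2 shares with harmine were 0.811% higher and 1.48% lower, those with *Dyrk1a* shRNA 1.16% and 2.47%, and those between the treatments 0.943% and 0.99%. Both treatments are set against the same control libraries.

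Libraries of the compared groups did not overlap for a number of genes close to that over all genes. Both harmine libraries lay above both controls for 4 of 31 genes (12.9%), beside 16.4% of all genes, and below for 6 (19.4%), beside 15.9%. Both *Dyrk1a* shRNA libraries lay above both controls for 5 genes (16.1%), beside 18.5%, and below for 7 (22.6%), beside 16.9%. *Dyrk1a* shRNA lay above harmine for 8 genes (25.8%), beside 20.2%, and below for 6 (19.4%), beside 20.8%. Genes clear of control in both treatments at once were not counted over all genes, and both treatments share the control libraries. Fitted changes were on both sides of 0. They were above 0 for 13 genes with harmine (41.9%), beside 47.5% of all genes, for 18 with *Dyrk1a* shRNA (58.1%), beside 48.3%, and for 17 between the treatments (54.8%), beside 49.9%. The median log2 fold change of the 31 genes was -0.07 with harmine, beside -0.02 over all genes. It was 0.01 with *Dyrk1a* shRNA, beside -0.01, and 0.02 between the treatments, beside -0.0011.

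**Figure D3:**
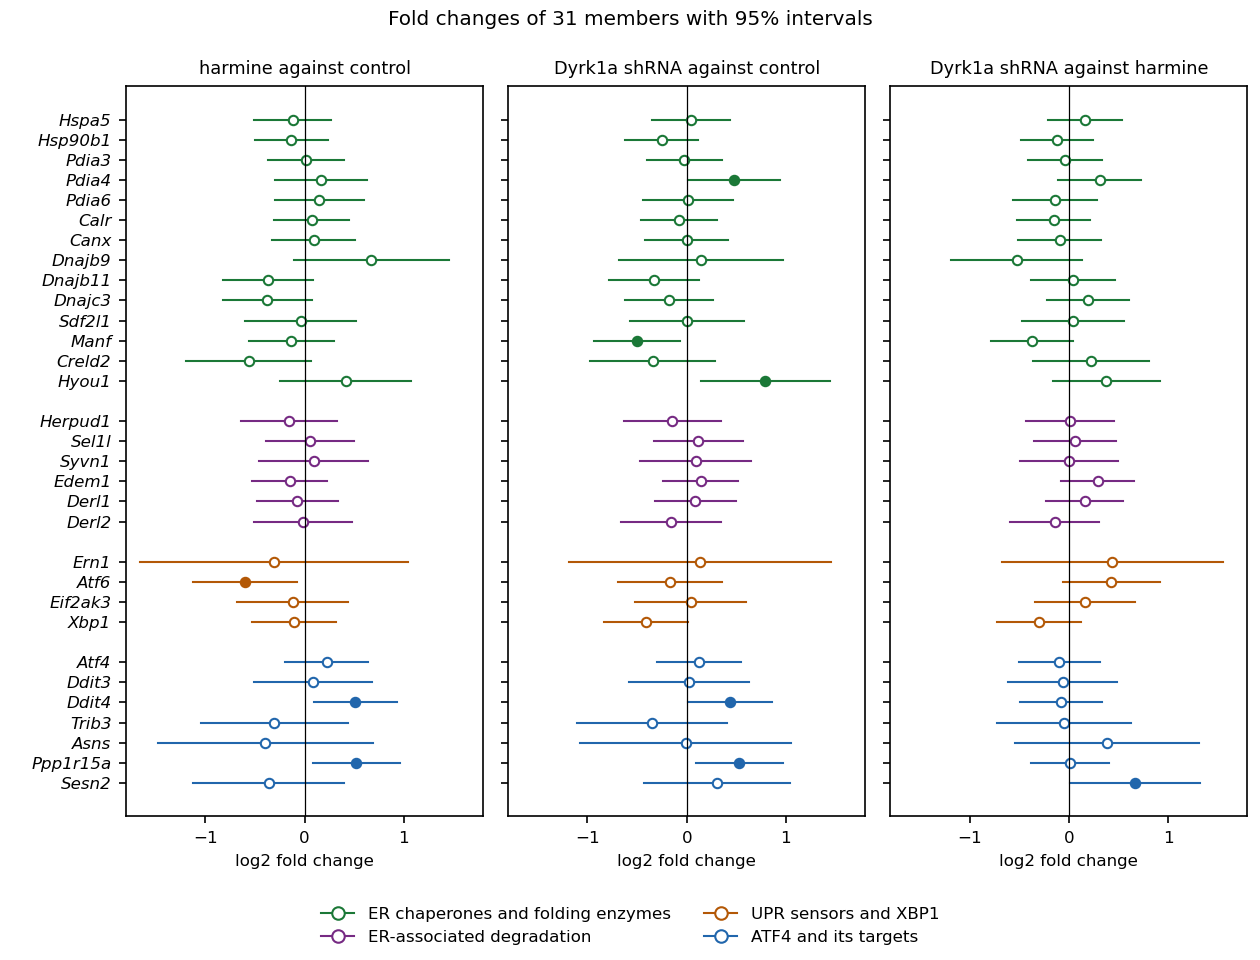
Fitted log2 fold change with its 95% interval for the 31 tested genes in the 3 comparisons, coloured by branch, with filled points where the unadjusted p was under 0.05. Filled points are *Atf6*, *Ddit4* and *Ppp1r15a* with harmine, *Pdia4*, *Manf*, *Hyou1*, *Ddit4* and *Ppp1r15a* with *Dyrk1a* shRNA, and *Sesn2* between the treatments.

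The chaperones and folding enzymes stayed close to control as a group, with a median of -0.01 in either comparison with control and 7 of 14 genes above 0 in each. *Hspa5*, which encodes BiP, the chaperone that holds the sensors inactive and is the classic readout of the UPR (chr2:34771970-34777547, plus strand), was at 131 and 140.0 CPM in *Dyrk1a* shRNA libraries, 114 and 128 CPM in harmine libraries and 124 and 140.1 CPM in control libraries. The 3 groups overlapped apart from both harmine libraries being below both *Dyrk1a* shRNA libraries. Its log2 fold change was -0.12 (standard error 0.18, 95% interval -0.51 to 0.27) with harmine and 0.04 (standard error 0.18, 95% interval -0.35 to 0.43) with *Dyrk1a* shRNA. An increase of BiP RNA beyond 0.27 with harmine or 0.43 with *Dyrk1a* shRNA on the log2 scale lay outside these intervals.

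*Hsp90b1*, which encodes the ER chaperone GRP94, was at 179 and 179 CPM in *Dyrk1a* shRNA libraries, 199 and 189.6 CPM in harmine libraries and 215 and 212 CPM in control libraries. All 4 treated libraries were below both controls, by little. The log2 fold change was -0.14 (standard error 0.17) with harmine and -0.25 (standard error 0.17) with *Dyrk1a* shRNA, with edgeR adjusted p of 0.957 and 0.74. The BiP cochaperones *Dnajb11* and *Dnajc3* also lay below both controls in all 4 treated libraries. *Dnajb11* was at 39.5 and 40.4 CPM in *Dyrk1a* shRNA libraries, 36.7 and 40.9 CPM in harmine libraries and 45.2 and 55.7 CPM in control libraries. *Dnajc3*, also known as an inhibitor of PERK, was at 46.0 and 46.0 CPM in *Dyrk1a* shRNA libraries, 43.8 and 36.7 CPM in harmine libraries and 48.96 and 55.7 CPM in control libraries. For both genes the nearest treated library was closer to the lower control than the controls were to each other. The log2 fold changes with harmine were -0.37 for *Dnajb11* and -0.37 for *Dnajc3* (standard errors 0.21 and 0.21), and with *Dyrk1a* shRNA -0.33 and -0.18 (standard errors 0.21 and 0.21).

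*Hyou1*, a large ER chaperone of the HSP70 family (chr9:44379490-44392369, plus strand), had 20.3 and 27.1 CPM in *Dyrk1a* shRNA libraries, 19.1 and 17.7 CPM in harmine libraries and 11.9 and 16.0 CPM in control libraries. All 4 treated libraries were above both controls, each of which rested on 19 counts. With *Dyrk1a* shRNA the log2 fold change was 0.79 (standard error 0.31, 1.73-fold, edgeR unadjusted p = 0.0203, adjusted p = 0.612), and with harmine 0.41 (standard error 0.31, adjusted p = 0.938). By DESeq2 the unadjusted p with *Dyrk1a* shRNA was 0.0653. *Pdia4*, a disulfide isomerase (chr6:47796141-47813430, minus strand), had 65.5 and 72.5 CPM in *Dyrk1a* shRNA libraries, 56.04 and 55.45 CPM in harmine libraries and 41.4 and 59.1 CPM in control libraries. Only the *Dyrk1a* shRNA libraries lay clear of the controls, with a log2 fold change of 0.48 (standard error 0.22, edgeR unadjusted p = 0.0431, adjusted p = 0.627), against 0.17 (standard error 0.22) with harmine. With *Dyrk1a* shRNA it was 0.22 without control replicate 1 and 0.74 without control replicate 2.

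*Manf*, a secreted ER stress protein (chr9:106838312-106891979, minus strand), had 51.7 and 61.9 CPM in *Dyrk1a* shRNA libraries, 74.2 and 72.9 CPM in harmine libraries and 91.02 and 69.2 CPM in control libraries. The *Dyrk1a* shRNA libraries were below all 4 others, whereas the harmine libraries lay between the controls. The log2 fold change was -0.50 with *Dyrk1a* shRNA (standard error 0.21, edgeR unadjusted p = 0.0276, adjusted p = 0.616) and -0.13 with harmine (standard error 0.20). With *Dyrk1a* shRNA it was -0.29 without control replicate 1. *Hyou1* and *Pdia4* therefore had positive and *Manf* negative fitted changes with *Dyrk1a* shRNA, although all 3 belong to the same branch. In the other chaperones with over 60 CPM, *Pdia3*, *Pdia6*, *Calr* and *Canx*, no fitted change from control exceeded 0.15 in either treatment. *Sdf2l1* was at -0.04 with harmine and 0.003 with *Dyrk1a* shRNA. *Dnajb9*, another BiP cochaperone, had the largest fitted change of the 14 with harmine, 0.67 (standard error 0.37), on 12 to 63 counts per library, and *Creld2* had -0.56 (standard error 0.30) on 23 to 75 counts. Without control replicate 1 these were 0.39 for *Dnajb9* and -0.21 for *Creld2*.

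**Figure D4:**
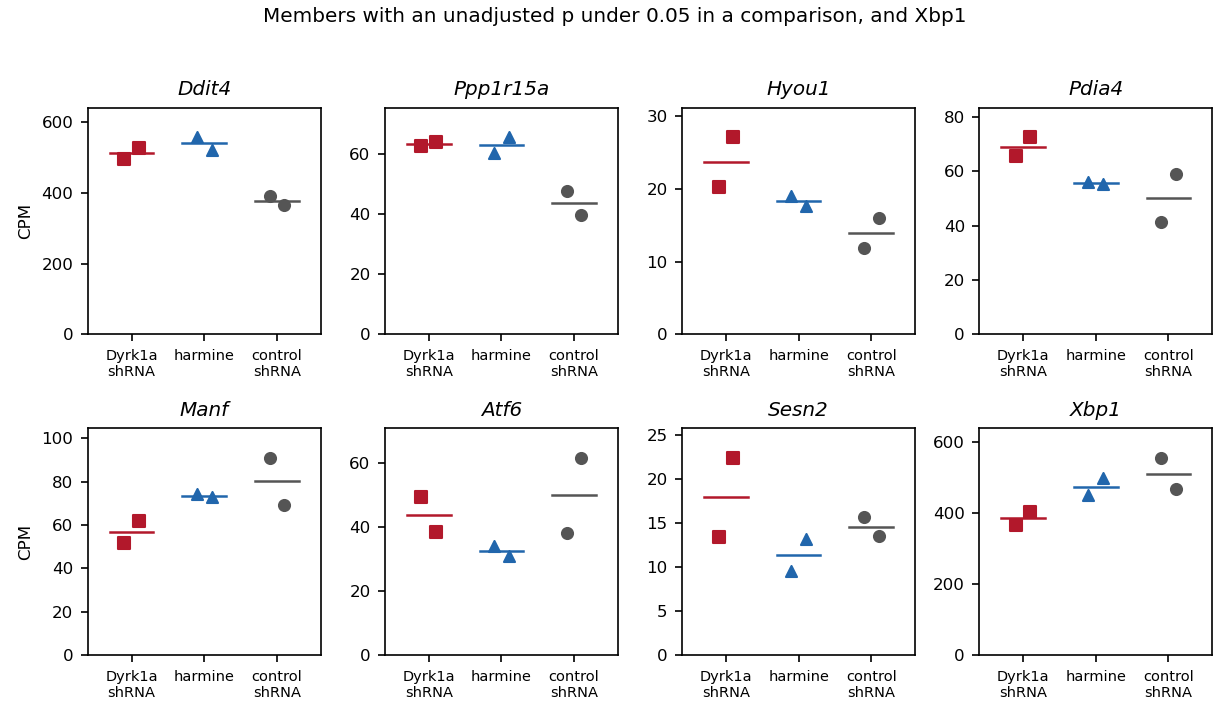
CPM in each library (points) and the mean of each group (lines) for the 7 genes with an unadjusted p under 0.05 in a comparison, and for *Xbp1*, with every axis starting at 0. For *Ddit4*, *Ppp1r15a* and *Hyou1* the 4 treated libraries lie above both controls, and for *Manf* and *Xbp1* the *Dyrk1a* shRNA libraries lie below the other 4.

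Genes with an ERSE lay on both sides of 0. The 8 genes with an ERSE had a median log2 fold change of -0.02 with harmine, from -0.56 for *Creld2* to 0.15 for *Pdia6*, and of -0.04 with *Dyrk1a* shRNA, from -0.34 to 0.09, with 4 genes above 0 in each comparison. Windows of *Hyou1* and *Manf* were not used here. The 3 tested genes with a CARE core, *Herpud1*, *Trib3* and *Asns*, had fitted changes of -0.16, -0.31 and -0.40 with harmine and of -0.14, -0.35 and -0.01 with *Dyrk1a* shRNA. None of these passed a test, and *Trib3* and *Asns* had at most 35 counts in a library.

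ER-associated degradation, which returns misfolded proteins to the cytosol for the proteasome, had the smallest fitted changes of the 4 branches. Across *Herpud1*, the ubiquitin ligase *Syvn1* with its partner *Sel1l*, the lectin *Edem1* and the channel components *Derl1* and *Derl2*, the log2 fold changes from control were between -0.16 and 0.09 with harmine and between -0.16 and 0.14 with *Dyrk1a* shRNA. The median was -0.04 with harmine and 0.09 with *Dyrk1a* shRNA, and all 6 intervals lay within 2-fold in every comparison. *Edem1*, the most abundant of them in CPM, had 166 and 165 CPM in *Dyrk1a* shRNA libraries, 128 and 143 CPM in harmine libraries and 148 and 152 CPM in control libraries. Both *Dyrk1a* shRNA libraries lay above both controls, and both harmine libraries lay below both. How often this occurs over all genes was not counted. The log2 fold change between *Dyrk1a* shRNA and harmine was 0.29 (standard error 0.17, edgeR adjusted p = 0.867).

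Among the sensors, *Atf6* (chr1:170704674-170867771, minus strand) had 49.4 and 38.3 CPM in *Dyrk1a* shRNA libraries, 33.98 and 30.9 CPM in harmine libraries and 38.3 and 61.6 CPM in control libraries. Both harmine libraries were below both controls, which differed from each other by more than the lower one did from harmine. With harmine the log2 fold change was -0.60 (standard error 0.25, 0.660-fold, edgeR unadjusted p = 0.0284, adjusted p = 0.905). It was -0.93 without control replicate 1 and -0.24 without control replicate 2, and with *Dyrk1a* shRNA it was -0.17 (standard error 0.25). For *Ern1* and *Eif2ak3*, which encode IRE1 and PERK, no group lay clear of control, with log2 fold changes of -0.31 and -0.12 with harmine and 0.13 and 0.04 with *Dyrk1a* shRNA. The control libraries differed most in *Ern1*, by 1.65 on the log2 scale, with 1.88 CPM in control replicate 1 and 5.91 CPM in control replicate 2. The median of the 4 genes was -0.21 with harmine and -0.07 with *Dyrk1a* shRNA.

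*Xbp1* (chr11:5520659-5525893, plus strand), the target of IRE1 and a factor of secretory cells, had 367 and 403 CPM in *Dyrk1a* shRNA libraries, 449.8 and 499.6 CPM in harmine libraries and 556 and 467 CPM in control libraries. Its level was lowest in both *Dyrk1a* shRNA libraries, and the harmine libraries overlapped with control. The log2 fold change was -0.41 with *Dyrk1a* shRNA (standard error 0.20, 95% interval -0.83 to 0.02, edgeR adjusted p = 0.658) and -0.11 with harmine (standard error 0.20). DESeq2 gave -0.42 with *Dyrk1a* shRNA, with an unadjusted p of 0.0489. In fits that leave 1 control library, the edgeR log2 fold change with *Dyrk1a* shRNA was -0.52 without control replicate 2, the shallowest library. Without control replicate 1 it was -0.29. Plasma cells hold much *Xbp1* and ER chaperone RNA, and their 6 markers in the table summed to 41.3 to 60.5 CPM in *Dyrk1a* shRNA libraries, 24.0 to 30.7 CPM in harmine libraries and 38.0 to 62.1 CPM in control libraries, with *Tnfrsf17* at 0 in all 6. The highest sum with *Dyrk1a* shRNA rested on *Sdc1*, at 29.5 CPM in replicate 1 and 7.07 CPM in replicate 2, against 9.24 and 7.39 CPM in harmine libraries and 6.28 and 10.1 CPM in control libraries. Markers of B cells summed to 184 to 237, 193 to 204 and 153 to 264 CPM in the same order of groups. The cells were isolated by depletion of other cell types and then by beads against CD62L. In bulk RNA, fewer cells of a type and less RNA per cell cannot be told apart. The part of plasma cells and B cells in the levels was not tested.

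In the ATF4 branch, *Ddit4* and *Ppp1r15a* had the largest fitted changes from control. The median of its 7 tested genes was 0.08 with harmine, and -0.35 without control replicate 2, and 0.12 with *Dyrk1a* shRNA. *Ddit4*, also known as REDD1 (chr10:59949669-59951834, minus strand), had 496 and 527 CPM in *Dyrk1a* shRNA libraries, 557 and 522 CPM in harmine libraries and 389.8 and 365 CPM in control libraries. All 4 treated libraries exceeded the higher control by more than the controls differed from each other. With harmine the log2 fold change was 0.51 (standard error 0.20, 95% interval 0.095 to 0.93, 1.43-fold, edgeR unadjusted p = 0.0193, adjusted p = 0.903). With *Dyrk1a* shRNA it was 0.44 (standard error 0.20, 95% interval 0.02 to 0.86, 1.35-fold, edgeR unadjusted p = 0.0419, adjusted p = 0.627). Leaving out any 1 library kept it between 0.47 and 0.56 with harmine and between 0.39 and 0.48 with *Dyrk1a* shRNA. DESeq2 gave 0.51 and 0.43, with unadjusted p of 0.012 and 0.033. Between the treatments the log2 fold change was -0.08, with a 95% interval of -0.49 to 0.34.

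*Ppp1r15a* (chr7:45522916-45526268, minus strand) encodes GADD34, the phosphatase subunit that removes the phosphate from eIF2α and so ends the response. It had 62.8 and 64.3 CPM in *Dyrk1a* shRNA libraries, 60.5 and 65.7 CPM in harmine libraries and 47.7 and 39.7 CPM in control libraries. As for *Ddit4*, all 4 treated libraries were above both controls, and the treated libraries overlapped with each other. The log2 fold change was 0.52 with harmine (standard error 0.21, 95% interval 0.08 to 0.96, 1.44-fold, edgeR unadjusted p = 0.0223, adjusted p = 0.905) and 0.53 with *Dyrk1a* shRNA (standard error 0.21, 95% interval 0.09 to 0.97, 1.45-fold, edgeR unadjusted p = 0.0212, adjusted p = 0.612). Between the treatments it was 0.0094, with a 95% interval of -0.38 to 0.40. Against control, DESeq2 gave 0.52 with harmine and 0.53 with *Dyrk1a* shRNA, with unadjusted p of 0.0682 and 0.0643.

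The rest of the ATF4 branch did not share this pattern. *Atf4* (chr15:80255184-80257541, plus strand) had 234 and 198 CPM in *Dyrk1a* shRNA libraries, 263 and 199 CPM in harmine libraries and 182 and 214 CPM in control libraries, and the groups overlapped. Its log2 fold changes were 0.22 with harmine (standard error 0.20) and 0.12 with *Dyrk1a* shRNA (standard error 0.20). *Ddit3*, which encodes CHOP, the factor of stress-induced cell death (chr10:127290774-127296288, plus strand), had 46.4 and 45.4 CPM in *Dyrk1a* shRNA libraries, 51.6 and 44.4 CPM in harmine libraries and 60.9 and 27.0 CPM in control libraries. All 4 treated libraries lay between the controls, which were 1.17 apart on the log2 scale, and the log2 fold changes were 0.08 (standard error 0.28) and 0.02 (standard error 0.28) with harmine and *Dyrk1a* shRNA. *Trib3*, a pseudokinase induced by ATF4 and CHOP, and *Asns*, asparagine synthetase, were low, at 9.24 to 13.8 and 3.17 to 5.75 CPM.

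Summed over all 9 genes, the branch reached 869 and 873 CPM in *Dyrk1a* shRNA libraries, 959 and 857 CPM in harmine libraries and 717 and 676 CPM in control libraries. Without *Ddit4* and *Ppp1r15a* the sums were 311 and 282 CPM in *Dyrk1a* shRNA libraries, 342 and 269.9 CPM in harmine libraries and 279.95 and 271 CPM in control libraries. The *Dyrk1a* shRNA libraries were then still above both controls, 1 of them by little, and the harmine libraries overlapped with control. Most of each remaining sum was *Atf4*, at 234 and 198 CPM with *Dyrk1a* shRNA and 182 and 214 CPM in control, where the groups overlapped. These sums therefore say little of the other genes of the branch. Fitted changes followed GC content across genes in the comparisons with *Dyrk1a* shRNA, with a Spearman correlation over 10531 genes of 0.34 against control and 0.42 against harmine, and of 0.0017 for harmine against control. Genes are not independent replicates, and what part GC content has in these changes was not tested. The median transcript GC content of the branch was 55.7%, against 49.97% over all genes tested. With trends in length and GC content removed, *Ppp1r15a* was at 0.30 and *Ddit4* at 0.32 with *Dyrk1a* shRNA, and at 0.44 and 0.51 with harmine. For *Ppp1r15a* with *Dyrk1a* shRNA the edgeR unadjusted p was then 0.126. Outside this branch the fitted changes with *Dyrk1a* shRNA moved either way. *Hyou1* went from 0.79 to 0.62, whereas *Manf* went from -0.50 to -0.55, *Pdia4* from 0.48 to 0.50 and *Xbp1* from -0.41 to -0.49.

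Set directly against each other, *Dyrk1a* shRNA and harmine differed most in *Sesn2* among the 31 genes. *Sesn2*, a stress-induced inhibitor of mTORC1 (chr4:132492032-132510501, minus strand), had 13.4 and 22.4 CPM in *Dyrk1a* shRNA libraries, 9.54 and 13.2 CPM in harmine libraries and 15.7 and 13.5 CPM in control libraries. The *Dyrk1a* shRNA libraries were above the harmine libraries by little in 1 case and by much in the other, and overlapped with control. The log2 fold change was 0.67 (standard error 0.31, edgeR unadjusted p = 0.0461, adjusted p = 0.859), and 0.23 without *Dyrk1a* shRNA replicate 2. It was -0.18 after thinning of all libraries to the depth of the shallowest. Of the other genes above harmine in both *Dyrk1a* shRNA libraries, *Ern1* had a log2 fold change of 0.44, *Atf6* of 0.43, *Hyou1* of 0.38 and *Pdia4* of 0.31. Both *Dyrk1a* shRNA libraries were below both harmine libraries for *Dnajb9*, *Manf* and *Xbp1*, with log2 fold changes of -0.52, -0.37 and -0.30 and edgeR adjusted p of 0.866, 0.866 and 0.891.

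Genes of the same pathways outside the 33 were counted in lists of 36 other UPR genes, of which 32 were tested, and 38 other genes of the integrated stress response, of which 34 were tested. None passed an adjusted p of 0.05 by edgeR or DESeq2. Without control replicate 2, the shallowest library, edgeR called genes of the UPR list lower in both treatments. With harmine these were the translocon subunits *Sec61b* and *Sec61g* and *Fkbp2*, and with *Dyrk1a* shRNA *Sec61b* and *Sec61g*. They were named after their values were seen. That fit leaves 1 control library, and calls were more frequent over all genes as well. The calls are therefore not read as a result about the list. The median log2 fold changes of the other UPR genes were -0.05 with harmine and 0.02 with *Dyrk1a* shRNA, with 14 and 17 genes above 0, and those of the other stress response genes were -0.03 and 0.03, with 16 and 20 above 0. At an unadjusted p under 0.05, edgeR gave 1 of the 32 UPR genes higher (3.12%) and 3 lower (9.38%) with harmine, beside 2.22% and 3.07% of all genes. With *Dyrk1a* shRNA it gave 2 higher (6.25%) and 3 lower (9.38%), beside 3.1% and 4.59%, and in neither comparison did it give a gene of the stress response list.

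*Fkbp2*, a prolyl isomerase of the ER, had 10.3 and 13.6 CPM in *Dyrk1a* shRNA libraries, 12.2 and 8.45 CPM in harmine libraries and 28.9 and 19.4 CPM in control libraries, with log2 fold changes of -1.02 (standard error 0.33) and -1.25 (standard error 0.33) and edgeR adjusted p of 0.612 and 0.57 with *Dyrk1a* shRNA and harmine. *Selk*, which encodes an ER selenoprotein that acts in calcium flux of immune cells, had 56.3 and 62.8 CPM in *Dyrk1a* shRNA libraries, 66.8 and 64.7 CPM in harmine libraries and 95.4 and 91.2 CPM in control libraries. Its log2 fold changes were -0.65 (standard error 0.19) with *Dyrk1a* shRNA and -0.51 (standard error 0.19) with harmine, with edgeR adjusted p of 0.612 and 0.903. In both genes all 4 treated libraries were below both controls. The selenoprotein gene *Vimp*, of the retrotranslocation complex, was at -0.66 with *Dyrk1a* shRNA, and the disulfide isomerase *Txndc5* at 0.43 with harmine. Among stress response genes, the transcription factor *Atf3* had the largest fitted change, 0.66 (standard error 0.34) with harmine and 0.58 (standard error 0.35) with *Dyrk1a* shRNA. Other changes with the smallest p in that list were -0.35 for the asparaginyl-tRNA synthetase *Nars* and 0.38 for *Vldlr* with harmine, and -0.37 for *Psph*, of serine synthesis, and 0.36 for the arginine transporter *Slc7a1* with *Dyrk1a* shRNA. Between *Dyrk1a* shRNA and harmine they were 0.52 for the leucine transporter *Slc7a5*, 0.40 for *Mthfd2*, of mitochondrial folate metabolism, and -0.41 for *Stc2*. The UPR genes were *Os9* at 0.39, *Dnajc10* at -0.34 and *Sec63* at -0.31, all of ER quality control or protein import.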

How the data were processed

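The authors deposited expected counts per gene, made on mm10 with TopHat2 2.0.13 and RSEM per the submitters' processing notes (RSEM version: not given in the sources used here). Libraries were primed with oligo-dT and made with Nextera, and strand was not taken into account in what follows. Counts were rounded to whole numbers. The 33 genes and all lists were chosen with earlier results of these data known.

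Genes were tested in R 4.3.3 with the quasi-likelihood test of edgeR 4.0.16 (two-sided) in 1 fit of the 3 groups, with TMM scaling, a minimum count of 10 in filterByExpr (10607 genes tested) and Benjamini-Hochberg adjustment over all of them. The authors used DESeq. CPM are counts over the TMM-scaled library size of the genes tested. Depth was 1096345 to 3747648 counts per library. Lengths, GC content and gene positions came from GENCODE M21 on GRCm38, the assembly of mm10, where 98.4% of symbols matched. Promoters came from RefSeq. Every one of the 33 genes is described. Values per library are given for genes with an unadjusted p under 0.05 in a comparison or libraries clear of control in both treatments, and for *Hspa5*, *Xbp1*, *Atf4* and *Ddit3*, with *Edem1*, *Chac1* and the other named pathway genes added, up to 3 per list and comparison by smallest p. Protein ends (ER retention signals) were not analysed here. The test was tested on simulated data.

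Alternatives were library size or the size factors of DESeq2 1.42.0 in place of TMM, the Wald test of DESeq2, leaving out the filter or raising its minimum to 50, blocking on replicate number, fitting only the groups compared, taking out trends with length and GC content (natural splines, 4 degrees of freedom), thinning to the depth of the smallest library, and omitting each library in turn.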

Additional observations from a re-analysis of the deposited data

How the results depend on the processing

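No gene of the 33 was called under any of the 15 alternatives, 6 of which left out 1 library. Leaving out a library changed the counts at an unadjusted p under 0.05, both in the set and over all genes. Such a fit leaves 1 library in a group, so these counts are not read as a result about the set. Of the other UPR genes, 0 to 3 were called with harmine and 0 to 2 with *Dyrk1a* shRNA, all without control replicate 2, where over all 10989 genes 36 were called higher and 255 lower with harmine and 48 and 391 with *Dyrk1a* shRNA. Without 1 library each, the median log2 fold changes with harmine ranged from -0.104 to -0.0397 over all genes of the set, from -0.102 to 0.0299 for chaperones, from -0.133 to -0.0254 for ER-associated degradation, from -0.711 to 0.0297 for sensors and from -0.345 to 0.194 for the ATF4 branch. With *Dyrk1a* shRNA against control the same ranges were -0.0558 to 0.108, -0.143 to -0.0098, -0.0267 to 0.107, -0.420 to 0.319 and 0.0127 to 0.420. Between the treatments they were -0.0088 to 0.0703, -0.0723 to 0.0298, -0.0265 to 0.158, 0.222 to 0.364 and -0.122 to 0.0492. The sensors reached both ends of their range against control without control replicate 1 (lowest) and 2 (highest). The ATF4 branch was lowest with harmine without control replicate 2 and highest with *Dyrk1a* shRNA without control replicate 1.

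Among the other settings, thinning gave medians with harmine of 0.0658 over all, 0.0643 for chaperones and 0.240 for the ATF4 branch, with *Dyrk1a* shRNA of -0.0638 for chaperones and 0.0277 for ER-associated degradation, and between the treatments of -0.044 over all, -0.0879 for chaperones and 0.0886 for ER-associated degradation. Removal of length and GC trends gave -0.110 over all, -0.0939 for ER-associated degradation and 0.222 for the ATF4 branch with harmine, and -0.0389 for ER-associated degradation with *Dyrk1a* shRNA. A minimum count of 50 gave -0.0326 over all and 0.363 for the ATF4 branch with harmine, and 0.269 for the ATF4 branch with *Dyrk1a* shRNA. With no filter the median between the treatments was 0.0414, and scaling by library size alone gave 0.0467 with *Dyrk1a* shRNA. The cause was not tested. Thinning is 1 random draw. With the replicate number as a block 0 genes were called in the set. Deviations of libraries with the same number correlated at 0.23 between *Dyrk1a* shRNA and harmine, 0.02 between *Dyrk1a* shRNA and control and 0.11 between harmine and control across 10607 genes. These correlations do not settle whether libraries with the same number belong together, and the main fit did not use the number. Depth limits the low genes most. The controls had 93 and 98 counts of *Dyrk1a*, and 8 of the 31 genes had intervals that reached 2-fold with harmine.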
